A study of Homo sapiens with 9 samples.

Results

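The genes described here are 31 genes of the unfolded protein response, the programme by which a cell adjusts its endoplasmic reticulum (ER) to a load of misfolded protein. ATAC-seq, which uses the Tn5 transposase to cut DNA where it is accessible, was done on the human neuroblastoma line SK-N-BE(2)c. The cells had received, through lipofectamine 2000, an antisense oligonucleotide (ASO) at 100 nM and were taken 48 h later. Groups ASO2 and ASO10 each received a different oligonucleotide against the long non-coding RNA NESPR, group NCA received a negative control ASO, and each group had 3 libraries. All 9 libraries were therefore transfected, and no untransfected cells enter the comparisons. The labels name a single cell line and do not say whether the libraries came from separate cultures, so the p-values measure the spread between these libraries, which may be technical. The study's title concerns stress attenuation by NESPR, and the comparisons below ask how open the DNA at ER stress genes was under each oligonucleotide.

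Members were found by position. A region of the deposited count table was taken as a gene-end region when its centre was no more than 1 kb from an end of a member gene on GRCh38, and as a distal region when it lay elsewhere in the gene or within 50 kb of it. Of 148797 regions in the table, 32 were gene-end regions and 323 were distal. All 32 gene-end regions and 280 of the distal regions had enough counts to be among the 119417 regions tested. Gene-end regions were found for 30 of the 31 genes, the exception being PDIA6. Of the 32, 27 lay at the gene's start, 2 lay at the far end (of ATF6 and CRELD2) and 3 (of SEC24D, DERL1 and PDIA3) were not assigned to an end, since these genes had no promoter window to give their strand. At 9 genes the region also lay at the end of a neighbour and cannot be credited to the member alone: CANX with CBY3, CRELD2 with ALG12, DERL2 with MIS12, DNAJB11 with TBCCD1, DNAJB9 with THAP5, MANF with DOCK3, SEC61B with ALG2, SERP1 with EIF2A and SPCS2 with XRRA1. Distal regions numbered 2 to 28 per gene (median 10). Of these 323, 79 lay inside a member gene and 51 at the end of another gene.

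Library totals ran from 7293565 to 10948569 counts. Among genes that mark adrenergic neuroblastoma, DBH, GATA3, HAND2 and ISL1 each had a gene-end region, at 15.5, 9.21, 13.0 and 23.5 CPM per kb of region in the highest group (CPM are counts-per-million values on TMM-scaled library sizes), and TH had none. Among genes of other cell types, PTPRC, CD3E, EPCAM, COL1A1 and ALB had none, while the epithelial gene KRT8 and the fibroblast gene COL1A2 had 1 region each, at 7.62 and 11.6 CPM per kb (1.45 and 2.49 CPM). These counts hold no measure of the NESPR RNA, so its knockdown could not be checked in them. In a bulk library, fewer cells with an open region and less opening per cell cannot be told apart.

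Protein entering the ER is folded by chaperones such as the Hsp70 protein BiP (HSPA5) and the Hsp90 protein GRP94 (HSP90B1), and protein that fails to fold is drawn back into the cytosol and degraded. When BiP is occupied by unfolded protein, the membrane sensors IRE1 (encoded by ERN1), ATF6 and PERK are released. IRE1 splices the XBP1 messenger RNA, ATF6 is cut to free a transcription factor, and PERK slows translation and induces ATF4. Spliced XBP1 and cleaved ATF6 bind short promoter elements of the ER stress genes together with the CCAAT-binding factor NF-Y.

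The best known of these elements is the ER stress response element, ERSE, read here as CCAAT, any 9 bases and CCACG. Its shorter form ERSE-II was read as ATTGG, any 1 base and CCACG. Both strands were searched in RefSeq promoter windows on GRCh38.p14, which run from 250 bases before to 50 bases after a start site, and 28 members had such a window. An ERSE was found in 8 of 28 members (28.6%), against 25 of all 27305 genes with a window (0.0916%). An ERSE-II was found in 3 of 28 (10.7%), against 19 of 27305 (0.0696%). A CCAAT box alone, which every ERSE and ERSE-II contains, was present in 25 of 28 members (89.3%) and in 39.7% of all genes. The UPR element core TGACGTGG was found in HYOU1 alone among members (0.927% of all genes), overlapping an ERSE-II there, and TGATGNAA, a core of composite C/EBP-ATF sites, in HERPUD1 alone (4.46% of all genes). A match describes the letters and does not show that a factor binds. The elements are shown because they were far more frequent here than over all genes, although most of the 28 members had neither. The members were listed as genes of the response that acts through these elements, so this frequency is not independent of that choice. Capitals mark the fixed ends, the spacer is in lower case, and each is read 5′ to 3′ on its own strand, with its first base counted back from the start site.
HSPA5 ERSE, 66 bases upstream, same strand: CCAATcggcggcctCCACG
XBP1 ERSE, 52 bases upstream, same strand: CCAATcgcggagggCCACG
CRELD2 ERSE, 62 bases upstream, opposite strand: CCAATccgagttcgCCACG
CALR ERSE, 207 bases upstream, opposite strand: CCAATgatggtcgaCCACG
HSP90B1 ERSE, 194 bases upstream, same strand: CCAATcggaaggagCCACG
HSP90B1 ERSE, 71 bases upstream, opposite strand: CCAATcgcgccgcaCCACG
CANX ERSE, 151 bases upstream, same strand: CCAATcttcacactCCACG
PDIA6 ERSE, 86 bases upstream, same strand: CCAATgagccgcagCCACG
SERP1 ERSE, 214 bases upstream, opposite strand: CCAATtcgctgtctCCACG
HERPUD1 ERSE-II, 117 bases upstream, same strand: ATTGGgCCACG
HYOU1 ERSE-II, 69 bases upstream, opposite strand: ATTGGaCCACG
HYOU1 ERSE-II, 175 bases upstream, opposite strand: ATTGGaCCACG
SDF2L1 ERSE-II, 178 bases upstream, opposite strand: ATTGGtCCACG

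The 250 bases upstream of the start are shown for HSPA5 (chr9:125241344-125241593, minus strand), HERPUD1 (chr16:56931892-56932141, plus strand), XBP1 (chr22:28800570-28800819, minus strand) and PDIA4 (chr7:149028491-149028740, minus strand). HERPUD1 and PDIA4 carried the gene-end regions that passed a test below, and HSPA5 and XBP1 are the textbook targets of the ERSE. Each is written 5′ to 3′ on the gene's strand, with every motif match in capitals. In HSPA5 and XBP1 the long run of capitals is the ERSE, in HERPUD1 it is the ERSE-II and the run before it is the TGATGNAA match on the other strand, and PDIA4 holds CCAAT boxes only.
HSPA5: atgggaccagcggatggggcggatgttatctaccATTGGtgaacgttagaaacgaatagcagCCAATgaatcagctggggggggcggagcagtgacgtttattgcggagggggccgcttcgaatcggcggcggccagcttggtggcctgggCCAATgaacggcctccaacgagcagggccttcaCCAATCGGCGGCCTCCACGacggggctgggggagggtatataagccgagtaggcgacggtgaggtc
HERPUD1: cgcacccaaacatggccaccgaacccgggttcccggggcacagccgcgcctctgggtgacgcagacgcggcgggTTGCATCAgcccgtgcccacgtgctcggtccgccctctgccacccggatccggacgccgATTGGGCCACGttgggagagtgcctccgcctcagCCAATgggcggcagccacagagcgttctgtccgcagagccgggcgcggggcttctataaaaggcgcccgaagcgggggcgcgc
XBP1: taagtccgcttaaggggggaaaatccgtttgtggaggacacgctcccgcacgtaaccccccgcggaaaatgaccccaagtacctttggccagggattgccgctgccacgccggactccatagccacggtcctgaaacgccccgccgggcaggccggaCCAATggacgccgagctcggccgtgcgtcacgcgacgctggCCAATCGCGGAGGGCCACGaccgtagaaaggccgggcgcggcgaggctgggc
PDIA4: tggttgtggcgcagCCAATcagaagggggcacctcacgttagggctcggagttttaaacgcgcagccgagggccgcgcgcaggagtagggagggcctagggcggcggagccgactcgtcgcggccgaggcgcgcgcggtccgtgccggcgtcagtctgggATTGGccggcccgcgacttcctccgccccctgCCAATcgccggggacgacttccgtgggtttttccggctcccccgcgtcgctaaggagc

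In the control libraries the gene ends of these genes spanned a 9.3-fold range of accessibility. Levels are given between genes as CPM per kb of region width, because regions differ in width. SEL1L, the adaptor that holds together the ubiquitin ligase of ER-associated degradation, stood highest at 78.4 ± 2.95 (SD, n = 3) CPM per kb in NCA. It was followed by the disulfide isomerase PDIA4 at 70.6 ± 7.24 and the Hsp40 co-chaperone DNAJB11 at 64.6 ± 3.45. HSPA5 stood at 34.7 ± 6.88. The transcription factors stood lowest, XBP1 at 11.1 ± 1.03 and ATF6 at 8.43 ± 1.19 CPM per kb. In that order of 30 genes, 25 of 29 neighbouring pairs overlapped between libraries. The steps where neighbours did not overlap were DNAJB11 above OS9, OS9 above DNAJB9, DNAJB9 above SERP1 and XBP1 above ATF6. The median over the 32 gene-end regions was 17.8 CPM per kb in NCA, against 12.3 at the gene ends of other protein-coding genes and 6.55 at the members' distal regions.

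**Figure D1:**
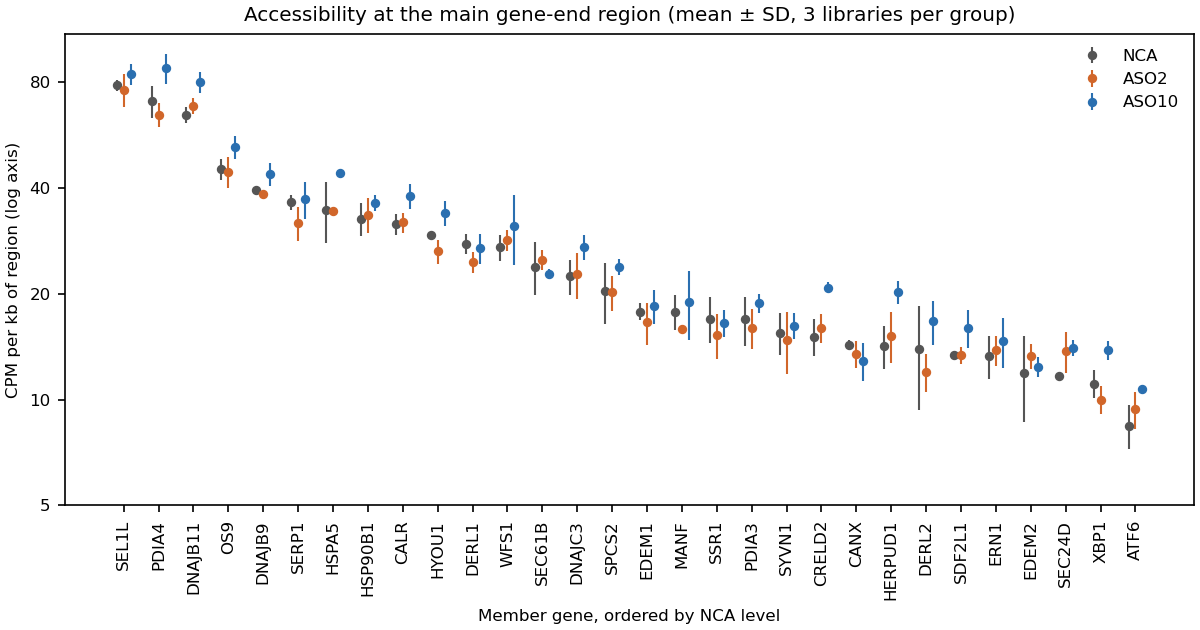
Accessibility of the main gene-end region of 30 genes in CPM per kb of region (log axis), ordered by the NCA level, as mean ± SD of 3 libraries for NCA (grey), ASO2 (orange) and ASO10 (blue). Levels fall from SEL1L at 78.4 to ATF6 at 8.43 in NCA, and the blue points lie above the grey ones at most genes while the orange ones lie close to them.

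No gene end of an unfolded protein response gene passed the test between ASO2 and NCA, and fold changes scattered on both sides of 0. With edgeR's quasi-likelihood test and Benjamini-Hochberg adjustment over all tested regions, 0 of 32 gene-end regions passed an adjusted p of 0.05, and 0 had an unadjusted p under 0.05. DESeq2 and limma-voom also called 0. Among all tested regions 5.6% were called in this comparison, and among 6379 other gene-end regions of like abundance 1.58%. An unadjusted edgeR p under 0.05 was reached at 19692 of the 119417 tested regions and at 684 of those 6379 gene ends. Like abundance means between the 10th and 90th percentile of the members' mean log2 CPM. The median log2 fold change over the 32 regions was −0.020, beside −0.033 over the gene ends of like abundance, and 13 of 32 lay above 0. Summed over the 32 regions, accessibility was 930.5 ± 35.4 CPM in NCA and 909.9 ± 56.5 CPM in ASO2 (SD, n = 3 each).

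Under ASO10 the gene end of HERPUD1 became more accessible and no other member's gene end passed the test. HERPUD1 was 1 of 32 called (3.12%), against 1.09% of all tested regions and 3.15% of gene ends of like abundance, so the members' share was that of their background. Most members had a positive fold change: 28 of 32 lay above 0 (87.5%), with a median of 0.20, but so did 72.9% of the gene ends of like abundance, with a median of 0.12. The summed level was 1063.0 ± 44.9 CPM in ASO10 against 930.5 ± 35.4 in NCA. A loess offset, fitted per library over all tested regions to take out a trend with abundance, brought the members' median to 0.085 and that of the like gene ends to 0.015. Under it 23 of 32 members (71.9%) and 53.5% of the like gene ends lay above 0, and no member was called. At other gene ends these offsets flattened the trend in ASO10 against NCA, but did not remove it in the other comparisons. In ASO2 against NCA they steepened it: the median ran from −0.192 at 2.5 log2 CPM to 0.0814 at 6.5 log2 CPM (from −0.11 to 0.0263 with TMM factors). In ASO2 against ASO10 they reversed it between the same levels. With TMM factors the median fell from −0.0887 to −0.189, and with loess offsets it rose from −0.188 to 0.0456.

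Set directly against each other, ASO2 and ASO10 differed at the gene end of PDIA4. It was the 1 region of 32 called (3.12%), lower in ASO2, beside 3.23% of all tested regions and 4.84% of gene ends of like abundance. The median log2 fold change of ASO2 over ASO10 was −0.23 over the members and −0.16 over the like gene ends, and became −0.085 and −0.07 with loess offsets. Above 0 lay 4 of 32 members (12.5%) and 19.0% of the like gene ends, or 25.0% and 33.8% with loess offsets. The ASO2 and ASO10 comparisons with NCA share its 3 libraries, and this comparison shares its libraries with both.

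**Figure D2:**
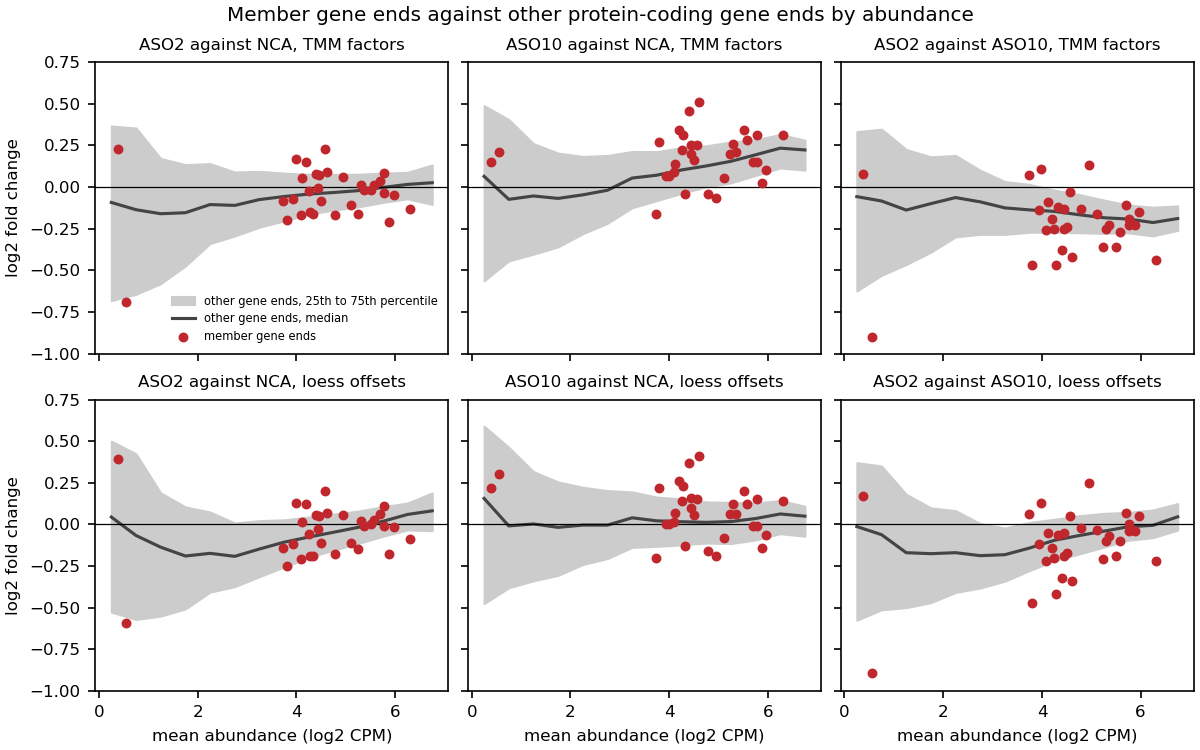
Log2 fold change of the 32 member gene-end regions (red points) against mean abundance in log2 CPM, over the median (line) and the 25th to 75th percentile (grey band) of other protein-coding gene ends, for the 3 comparisons with TMM factors (upper row) and loess offsets (lower row). In ASO10 against NCA the grey median itself climbs above 0 with abundance under TMM factors and lies near 0 with loess offsets, where the members' median is 0.085.

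In each of the 3 ASO10 libraries the members' median lay above 0 and above that of the like gene ends. The median log2 ratio of the 32 regions to the NCA mean was 0.20, 0.11 and 0.22 in ASO10 replicates 1, 2 and 3, beside 0.17, 0.077 and 0.13 over the like gene ends in the same libraries. In ASO2 replicates 1, 2 and 3 it was −0.039, 0.027 and −0.058, beside −0.026, 0.078 and −0.14. All 3 ASO10 libraries stood above all 3 NCA libraries at 12 of 32 gene ends (37.5%), beside 26.6% of the like gene ends and 8.51% of all tested regions. Those 12 were CALR, CRELD2, DNAJB11, DNAJB9, DNAJC3, HSPA5, HYOU1, SDF2L1, HERPUD1, ATF6, XBP1 and SEC24D, and none stood wholly below. All 3 ASO2 libraries stood below all 3 ASO10 libraries at 13 of 32 (40.6%), beside 27% of the like gene ends and 8.31% of all tested regions.

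**Figure D3:**
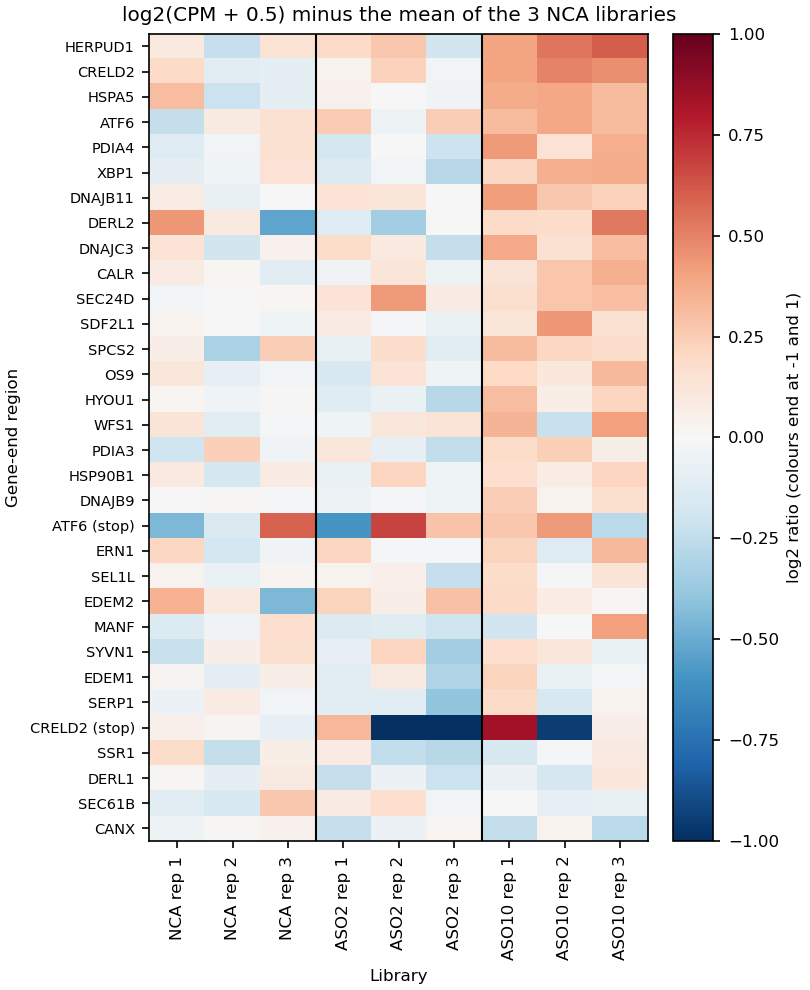
Each of the 32 gene-end regions (rows, ordered by ASO10 fold change) in each of the 9 libraries (columns), as log2(CPM + 0.5) minus the mean of the 3 NCA libraries, with colours ending at −1 and 1. The 3 ASO10 columns are red over the upper rows led by HERPUD1, CRELD2 and HSPA5, whereas the ASO2 columns show no common colour. The regions at the far end of ATF6 and CRELD2, which hold 3 to 24 counts per library, vary most.

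Among the sensors and transcription factors (4 regions) no region was called in any comparison, and all 4 lay above 0 in ASO10 against NCA, with a median of 0.23. XBP1, the transcription factor whose messenger RNA is spliced by IRE1, had its gene-end region at chr22:28799325-28800970. It measured 17.0, 17.7 and 20.2 CPM in NCA, 16.6, 17.9 and 15.0 in ASO2 and 21.1, 23.4 and 23.7 in ASO10. The ASO10 libraries were the highest and overlapped neither other group. The log2 fold change was −0.15 ± 0.15 (SE) for ASO2 (adjusted p = 0.677) and 0.31 ± 0.15 for ASO10 (adjusted p = 0.425). ASO2 against ASO10 gave −0.47 ± 0.15 (adjusted p = 0.0549), which passed when only those groups were fitted (−0.49, adjusted p = 0.0258) or when every library had to hold 10 counts (−0.46, adjusted p = 0.0257).

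ATF6, the sensor that is cleaved into a transcription factor, had its start region at chr1:161765012-161766924. It measured 13.5, 17.0 and 17.8 CPM in NCA, 19.2, 15.5 and 19.1 in ASO2 and 20.1, 21.0 and 20.1 in ASO10. ASO10 lay above both other groups, and the log2 fold change against NCA was 0.34 ± 0.15 (adjusted p = 0.39). ERN1, the gene of IRE1, measured 18.8, 14.4 and 15.9 CPM in NCA, 18.9, 16.1 and 16.1 in ASO2 and 19.0, 14.8 and 20.4 in ASO10 at chr17:64129433-64130664. The groups overlapped throughout, with log2 fold changes of 0.053 for ASO2 and 0.14 for ASO10 (adjusted p = 0.914 and 0.812).

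Chaperones and folding enzymes made up 14 regions, of which 13 lay above 0 in ASO10 against NCA (median 0.23, or 0.12 with loess offsets) and 5 in ASO2 against NCA (median −0.026). PDIA4, a protein disulfide isomerase, is the member called between the oligonucleotides, at chr7:149028120-149029186. It measured 68.4, 73.8 and 83.6 CPM in NCA, 66.5, 75.1 and 65.0 in ASO2 and 101.0, 83.2 and 96.9 in ASO10. ASO2 lay wholly below ASO10, while ASO10 replicate 2 fell within the NCA range. The log2 fold change of ASO2 over ASO10 was −0.44 ± 0.1 (adjusted p = 0.0025), lower than all but 1.78% of the gene ends within 0.5 log2 CPM of its abundance. Each group's own difference from NCA did not pass (ASO2 −0.13 ± 0.11, adjusted p = 0.592, and ASO10 0.31 ± 0.1, adjusted p = 0.126). The call was lost with loess offsets (−0.22, adjusted p = 0.178) and without ASO10 replicate 1 (−0.39, adjusted p = 0.0754).

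HSPA5, the gene of BiP, measured 51.3, 35.6 and 38.8 CPM in NCA, 42.7, 41.3 and 40.4 in ASO2 and 53.6, 54.2 and 51.6 in ASO10, at chr9:125240816-125242023. The ASO10 libraries lay above all others, NCA replicate 1 came close to them, and the spread was widest in NCA (SD 8.3 CPM, against 1.15 in ASO2 and 1.36 in ASO10). Against NCA the log2 fold change was −0.015 ± 0.12 in ASO2 (adjusted p = 0.972) and 0.34 ± 0.12 in ASO10 (adjusted p = 0.14). ASO2 against ASO10 gave −0.36 ± 0.12 (adjusted p = 0.0586). By limma-voom both of the latter passed, at 0.37 (adjusted p = 0.0487) and −0.36 (adjusted p = 0.0169). By edgeR with loess offsets both shrank and neither passed, at 0.20 (adjusted p = 0.501) and −0.19 (adjusted p = 0.381). Without NCA replicate 2 the ASO10 difference from NCA was 0.24 (edgeR adjusted p = 0.589), and without NCA replicate 1 it was 0.51 (adjusted p = 0.0545).

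CRELD2, a secreted ER stress protein that shares its region with the mannosyltransferase gene ALG12, measured 20.9, 16.9 and 17.1 CPM in NCA, 18.7, 21.5 and 17.9 in ASO2 and 24.2, 25.9 and 25.4 in ASO10, at chr22:49918123-49919333. ASO10 was again wholly above, by a log2 fold change of 0.46 ± 0.15 (adjusted p = 0.0956). DNAJB9, a BiP co-chaperone that holds IRE1 inactive and shares its region with THAP5, varied little among the NCA libraries. It measured 52.8, 53.1 and 52.3 CPM in NCA, 50.8, 52.3 and 51.1 in ASO2 and 62.6, 53.9 and 59.1 in ASO10, at chr7:108569274-108570611. Its log2 fold change was −0.037 in ASO2 and 0.15 in ASO10 (adjusted p = 0.917 and 0.69), and the latter turned to −0.012 with loess offsets.

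At the other end of this group stood CANX, the lectin chaperone calnexin. Its gene-end region at chr5:179677865-179678825 measured 13.3, 13.9 and 14.2 CPM in NCA, 11.6, 13.2 and 13.9 in ASO2 and 11.6, 14.1 and 11.3 in ASO10, with a log2 fold change of −0.16 in ASO10 (adjusted p = 0.817). The RefSeq promoter window of CANX, with its ERSE, lies inside the gene, under a different region at chr5:179698193-179699323. That region measured 37.4 ± 3.85 CPM in NCA, 36.9 ± 2.99 in ASO2 and 42.9 ± 2.81 in ASO10, a log2 fold change of 0.20 ± 0.12 in ASO10 (adjusted p = 0.599). PDIA6, a further disulfide isomerase, likewise has its ERSE under an internal region, at chr2:10812342-10813392. It measured 24.0, 23.7 and 27.1 CPM in NCA, 27.2, 27.7 and 25.8 in ASO2 and 31.8, 34.5 and 34.5 in ASO10. ASO10 lay above both groups, by 0.43 ± 0.13 over NCA (adjusted p = 0.0802, or 0.31 with adjusted p = 0.241 by loess offsets). A second PDIA6 promoter window, without an ERSE, lies under chr2:10832246-10832784, where all groups overlapped (7.5 ± 0.858 CPM in ASO10 against 6.39 ± 0.836 in NCA, 0.24 ± 0.24, adjusted p = 0.791).

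Genes of ER-associated degradation made up 8 regions, with medians of −0.057 in ASO2 and 0.085 in ASO10, and 0.002 in ASO10 with loess offsets. HERPUD1, a membrane protein that gathers the degradation complex, stood apart from that median. At chr16:56931663-56933123 it measured 22.0, 17.4 and 22.6 CPM in NCA, 23.6, 24.9 and 18.0 in ASO2 and 27.1, 30.0 and 31.5 in ASO10. All 3 ASO10 libraries were above all 6 others. The log2 fold change in ASO10 was 0.51 ± 0.14 (adjusted p = 0.0302), above 98.3% of the gene ends within 0.5 log2 CPM of its abundance. In ASO2 it was 0.091 ± 0.14 (adjusted p = 0.815), and ASO2 against ASO10 gave −0.42 ± 0.14 (adjusted p = 0.0613). The latter passed by limma-voom (−0.45, adjusted p = 0.032), with 10 counts in every library (adjusted p = 0.0233), with only those groups fitted (−0.44, adjusted p = 0.0269) and without ASO2 replicate 2 (−0.52, adjusted p = 0.0353). The ASO10 call was lost with loess offsets (0.41, adjusted p = 0.0883), and without NCA replicate 1 (0.56, adjusted p = 0.0834), NCA replicate 2 (0.40, adjusted p = 0.31), ASO10 replicate 1 (0.57, adjusted p = 0.065), ASO10 replicate 2 (0.50, adjusted p = 0.125) or ASO10 replicate 3 (0.46, adjusted p = 0.234).

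DERL2, a Derlin of the retrotranslocation channel, shares its region with MIS12. It measured 17.6, 13.9 and 8.85 CPM in NCA, 11.8, 10.1 and 12.9 in ASO2 and 14.9, 14.8 and 18.9 in ASO10, at chr17:5485951-5486919. Its log2 fold change of ASO2 over ASO10 was −0.47 ± 0.17 (adjusted p = 0.106). EDEM2, which trims mannose from misfolded glycoproteins, measured 18.6, 15.5 and 10.4 CPM in NCA, 17.0, 15.1 and 17.8 in ASO2 and 16.5, 15.2 and 14.6 in ASO10, at chr20:35146605-35147855. All its groups overlapped, with log2 fold changes of 0.17 in ASO2 and 0.067 in ASO10 (adjusted p = 0.654 and 0.928). SEL1L, at chr14:81533446-81534229, measured 62.9, 58.8 and 62.6 CPM in NCA, 63.0, 63.6 and 52.3 in ASO2 and 69.7, 61.0 and 67.2 in ASO10, again overlapping.

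Translocation, export and membrane genes made up 6 regions, with medians of 0.019 in ASO2 and 0.11 in ASO10, and −0.012 in ASO10 with loess offsets. SEC24D, a cargo receptor of the COPII vesicles that leave the ER, measured 20.6, 21.1 and 21.3 CPM in NCA, 23.2, 28.3 and 22.2 in ASO2 and 23.6, 25.6 and 26.0 in ASO10, at chr4:118835094-118836885. Both oligonucleotide groups lay wholly above NCA, by 0.23 ± 0.14 in ASO2 (adjusted p = 0.44) and 0.25 in ASO10 (adjusted p = 0.533). SERP1, which stabilises proteins at the translocon and shares its region with EIF2A, measured 58.6, 64.7 and 59.9 CPM in NCA, 56.7, 56.2 and 46.3 in ASO2 and 69.6, 54.5 and 62.4 in ASO10, at chr3:150545867-150547544. ASO2 lay below NCA there, by −0.21 ± 0.11 (adjusted p = 0.344). SEC61B, a subunit of the translocon, measured 28.0, 27.2 and 36.6 CPM in NCA, 32.1, 34.1 and 29.8 in ASO2 and 30.4, 28.7 and 28.8 in ASO10, at chr9:99221458-99222741, with all groups overlapping NCA.

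**Figure D4:**
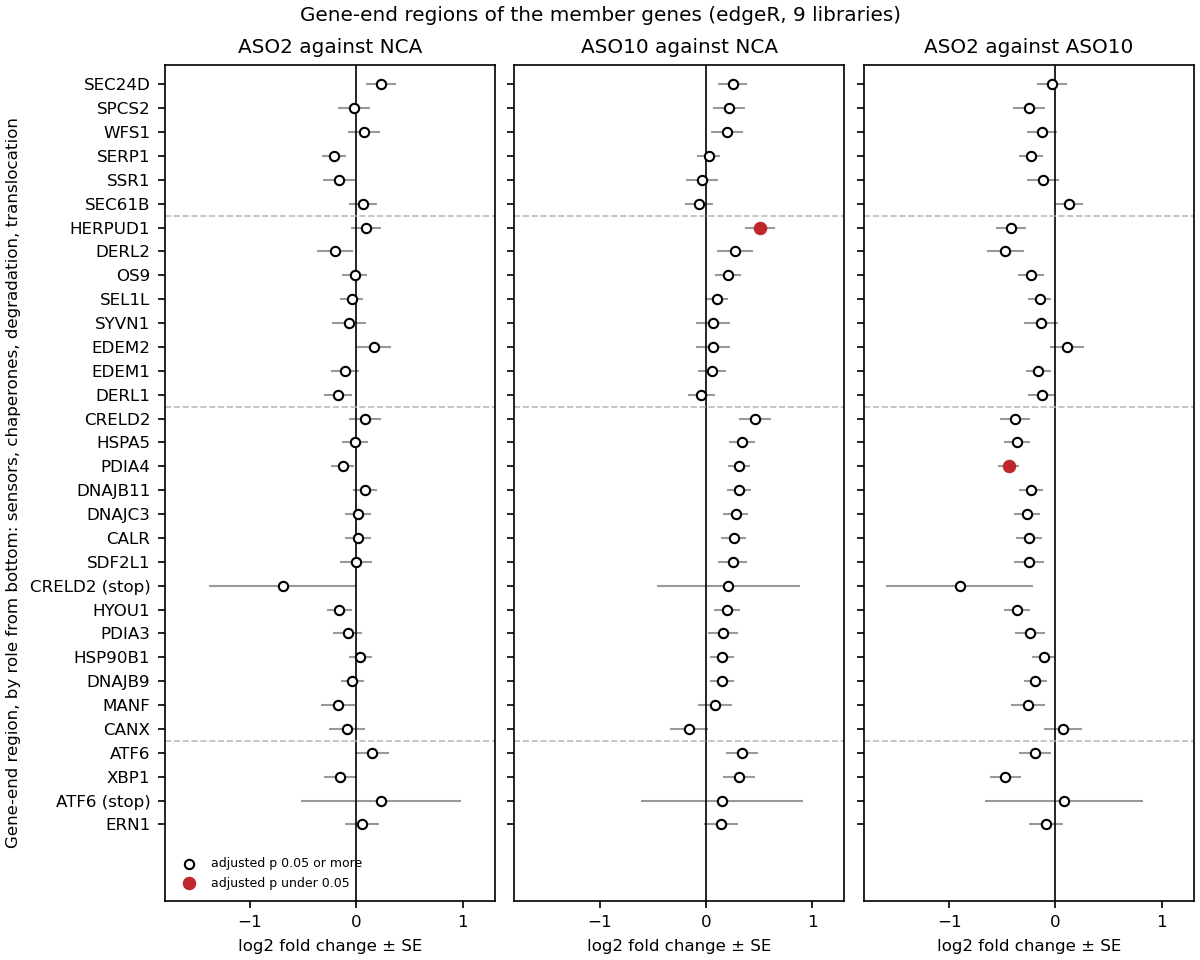
Log2 fold change ± SE of the 32 gene-end regions in the 3 comparisons, grouped by role between dashed lines, with filled red points for adjusted p under 0.05 (edgeR, 9 libraries). The points scatter about 0 for ASO2 against NCA, lie mostly to the right for ASO10 against NCA, where HERPUD1 at 0.51 is filled, and mostly to the left for ASO2 against ASO10, where PDIA4 at −0.44 is filled.

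Gene ends whose promoter window held an ERSE or ERSE-II were compared with the rest as a description. The 9 regions with an element had a median log2 fold change of 0.26 in ASO10 against NCA, ranging from 0.025 to 0.51, with 9 of 9 above 0. The 17 regions over a window without an element had a median of 0.15, ranging from −0.067 to 0.34, with 15 of 17 above 0. With loess offsets the medians were 0.16 and 0.065. The gene ends of like abundance to the members had a median of 0.12, with 72.9% above 0, and 0.015 with loess offsets. With TMM factors the medians in ASO2 against NCA were −0.0026 and −0.023. In ASO2 against ASO10 they were −0.36 and −0.19, beside −0.16 at the like gene ends. With loess offsets these became −0.19 and −0.064, beside −0.07. Regions with an element were also more open in NCA, at a median of 29.4 CPM per kb against 20.4, and the part of that difference in the fold changes was not tested. The ranges of the 2 sets overlapped in each comparison.

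Away from the gene ends, 14 distal regions near 11 of the genes were called in at least 1 comparison. Of 280 distal regions tested, 8 were called in ASO2 against NCA (6 higher and 2 lower, 2.86%), 2 in ASO10 against NCA (both higher, 0.714%) and 7 in ASO2 against ASO10 (2 higher and 5 lower, 2.5%). Those shares lie below the background of 5.6%, 1.09% and 3.23% over all tested regions. The median log2 fold changes were −0.022, 0.042 and −0.019. Each call is attached to the gene by distance alone, and exon and intron positions were not used here.

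The strongest distal difference lay inside ATF6, 81127 bases from the nearer gene end, at chr1:161882736-161883150. It was a weak region, at 1.03, 0.504 and 1.7 CPM in NCA (8, 4 and 15 counts), 3.09, 5.37 and 4.77 CPM in ASO2 and 1.99, 1.48 and 1.43 CPM in ASO10. ASO2 lay wholly above both other groups. It rose in ASO2 by a log2 fold change of 2.01 ± 0.47 over NCA (adjusted p = 0.000923), a call that held in 17 of 17 alternatives that could test it. Over ASO10 the value was 1.43 ± 0.44 (adjusted p = 0.0421), and ASO10 over NCA gave 0.58 (adjusted p = 0.743). The call over ASO10 was lost with loess offsets (1.38, adjusted p = 0.0599), with no filter (1.43, adjusted p = 0.0558) and without ASO2 replicate 2 (1.27, adjusted p = 0.245), ASO2 replicate 3 (1.37, adjusted p = 0.173), ASO10 replicate 1 (1.60, adjusted p = 0.0841), ASO10 replicate 2 (1.36, adjusted p = 0.165) or ASO10 replicate 3 (1.35, adjusted p = 0.173).

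Near EDEM2 a pair of neighbouring regions outside the gene were called in different comparisons. The region at chr20:35171751-35172773, 24926 bases away, measured 6.96, 8.7 and 7.83 CPM in NCA, 16.6, 13.3 and 11.4 in ASO2 and 10.2, 11.7 and 8.59 in ASO10. ASO2 was highest by 0.80 ± 0.2 over NCA (adjusted p = 0.00214), and the call was lost without ASO2 replicate 1 (0.66, adjusted p = 0.0663). The region at chr20:35174619-35175218, 27582 bases away, measured 3.86, 5.17 and 3.63 CPM in NCA, 2.95, 2.36 and 2.48 in ASO2 and 7.15, 4.78 and 6.51 in ASO10. There ASO2 was the lowest group, by −1.25 ± 0.32 against ASO10 (adjusted p = 0.00693), lost without ASO10 replicate 1 (−1.12, adjusted p = 0.0909).

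A region 17908 bases outside DNAJB9, at chr7:108592346-108593169, measured 7.09, 7.31 and 6.47 CPM in NCA, 10.5, 11.9 and 13.5 in ASO2 and 8.91, 5.8 and 10.8 in ASO10. It rose in ASO2 by 0.79 ± 0.21 (adjusted p = 0.00532, and 0.69 with adjusted p = 0.074 without ASO2 replicate 3), while the DNAJB9 gene-end region did not pass. A region 11270 bases outside SPCS2, a signal peptidase subunit, measured 5.93, 3.53 and 4.77 CPM in NCA, 7.58, 8.16 and 8.99 in ASO2 and 6.1, 7.74 and 6.9 in ASO10, at chr11:74937665-74938328. ASO2 lay wholly above NCA, and ASO10 lay above it too. The ASO2 difference was 0.80 ± 0.25 (adjusted p = 0.0273), lost with loess offsets (0.72, adjusted p = 0.056), DESeq2 (0.80, adjusted p = 0.0582), and without NCA replicate 2 (0.63, adjusted p = 0.226), NCA replicate 3 (0.81, adjusted p = 0.0787), ASO2 replicate 2 (0.81, adjusted p = 0.0791) or ASO2 replicate 3 (0.73, adjusted p = 0.139).

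Inside DNAJC3, the gene of the co-chaperone p58IPK, a call rested on a single library. The region at chr13:95784894-95785505, 9788 bases from the gene's end, measured 2.19, 2.14 and 3.86 CPM in NCA, 4.35, 10.7 and 3.67 in ASO2 and 3.28, 2.5 and 3.39 in ASO10. ASO2 replicate 2 stood far above every other library, and ASO2 and NCA overlapped. The log2 fold change of ASO2 over NCA was 1.18 ± 0.33 (adjusted p = 0.00906) and 0.54 without that replicate (adjusted p = 0.618). It was also lost by DESeq2 (1.18, adjusted p = 0.0744), limma-voom (1.03, adjusted p = 0.0531), and without NCA replicate 1 (1.05, adjusted p = 0.0799) or NCA replicate 2 (1.03, adjusted p = 0.0836). ASO2 over ASO10 gave 1.03 ± 0.32 (adjusted p = 0.0433) and 0.38 without ASO2 replicate 2 (adjusted p = 0.757). That call was lost as well by DESeq2, by limma-voom, with loess offsets, with no filter (1.04, adjusted p = 0.0563), and without any single ASO10 replicate (1.09, 0.91 and 1.11 without replicates 1, 2 and 3).

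The 2 distal regions called in ASO10 against NCA lay near ERN1 and SDF2L1. The ERN1 region at chr17:64145539-64146422, 15836 bases outside the gene, measured 25.0, 25.1 and 25.9 CPM in NCA, 27.2, 24.3 and 25.0 in ASO2 and 34.8, 34.9 and 36.1 in ASO10. ASO10 formed a tight group well above the other 6 libraries. It rose by 0.48 ± 0.13 over NCA (adjusted p = 0.0335), and ASO2 against ASO10 was −0.47 ± 0.13 (adjusted p = 0.016). Both calls were lost with loess offsets, at 0.36 (adjusted p = 0.124) and −0.36 (adjusted p = 0.0639). The first was also lost with no filter (0.49, adjusted p = 0.0531). Leaving out any 1 NCA or ASO10 library lost it too, with values of 0.46 to 0.50 and adjusted p up to 0.195. The second was lost without ASO2 replicate 2 (−0.44), ASO2 replicate 3 (−0.46) or any ASO10 replicate (−0.48, −0.48 and −0.46), with adjusted p up to 0.1.

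Near SDF2L1, an ER chaperone cofactor, the region at chr22:21632342-21632966 lies 9648 bases away at the end of CCDC116. It measured 11.7, 7.56 and 7.15 CPM in NCA, 11.6, 10.7 and 12.6 in ASO2 and 15.7, 16.6 and 11.5 in ASO10. NCA replicate 1 overlapped both other groups. The region rose in ASO10 by 0.74 ± 0.19 (adjusted p = 0.0161, and 0.70 with adjusted p = 0.0212 by loess offsets). It no longer passed without NCA replicate 2 (0.64, adjusted p = 0.155), NCA replicate 3 (0.61, adjusted p = 0.19), ASO10 replicate 1 (0.68, adjusted p = 0.145) or ASO10 replicate 2 (0.64, adjusted p = 0.173).

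Regions near OS9 and XBP1 were lower in ASO2 than in ASO10 and also lie at the ends of other genes. The OS9 region at chr12:57751613-57752892, at the end of CDK4 and 30696 bases from OS9, measured 43.8, 39.7 and 40.3 CPM in NCA, 38.2, 42.7 and 30.8 in ASO2 and 52.1, 44.3 and 52.2 in ASO10, a difference of −0.41 ± 0.12 (adjusted p = 0.0226). With loess offsets it was −0.26 (adjusted p = 0.182), and it was lost without ASO2 replicate 1 (−0.43), ASO2 replicate 3 (−0.29), ASO10 replicate 1 (−0.37) or ASO10 replicate 3 (−0.37). OS9 itself encodes a lectin that brings misfolded glycoproteins to degradation. The XBP1 region at chr22:28772418-28773426, at the end of CCDC117 and 21638 bases from XBP1, measured 9.79, 9.83 and 9.53 CPM in NCA, 7.86, 10.7 and 5.78 in ASO2 and 14.1, 11.8 and 12.4 in ASO10, a difference of −0.66 ± 0.2 (adjusted p = 0.0322). ASO10 lay above all other libraries there. The call was lost by DESeq2 (−0.66, adjusted p = 0.0847) and without ASO2 replicate 1 (−0.64), ASO2 replicate 3 (−0.44) or ASO10 replicate 1, 2 or 3 (−0.58, −0.71 and −0.68).

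The remaining 4 called distal regions lay outside the rule for giving every library and are named because they complete the calls. Among them are the 2 that fell in ASO2 against NCA. A region 43608 bases outside OS9, at chr12:57764716-57765613, fell from 10.3 ± 0.72 to 6.29 ± 1.8 CPM (−0.69 ± 0.22, adjusted p = 0.0398, and 0.0156 with loess offsets). A weak region inside DNAJC3, at chr13:95741616-95741953, fell from 2.98 ± 1.1 to 0.934 ± 0.8 CPM (−1.67 ± 0.55, adjusted p = 0.0427, and 0.0549 with loess offsets), opposite in direction to the other called DNAJC3 region. A region inside SEC24D, at chr4:118757742-118758195, rose in ASO2 from 4.66 ± 0.947 to 8.07 ± 1.06 CPM (0.78 ± 0.26, adjusted p = 0.0441, and 0.0852 with loess offsets). The region near CALR, at chr19:12956824-12957505 and at the end of GADD45GIP1, was lower in ASO2 than in ASO10 (−0.87 ± 0.27, adjusted p = 0.0419, and 0.0173 with loess offsets).

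**Figure D5:**
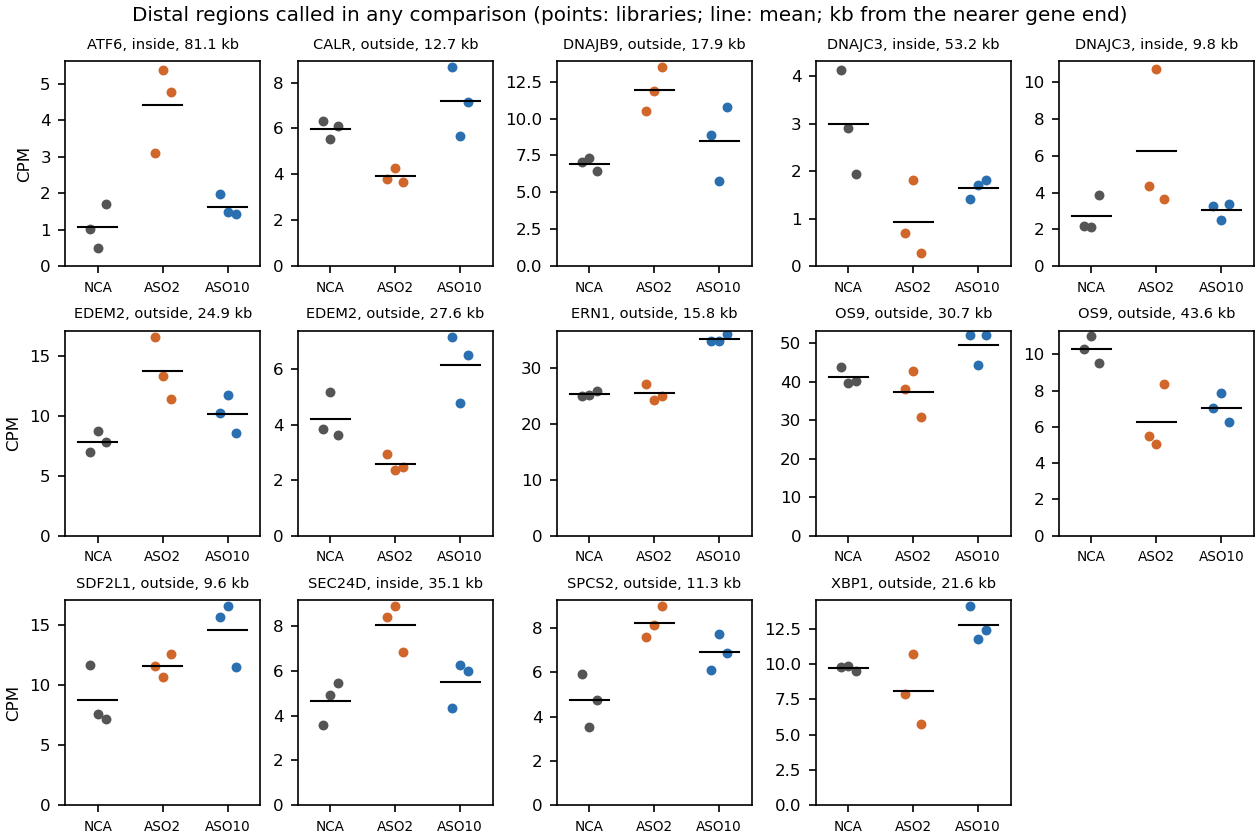
CPM in each library (points, axes from 0) and group mean (line) of the 14 distal regions called in any comparison, titled by gene, inside or outside it, and distance to the nearer gene end in kb. ASO2 stands above the other groups in ATF6, whereas ASO10 stands above both in the ERN1 panel, and a single ASO2 library at 10.7 CPM sets the DNAJC3 panel at 9.8 kb.

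Other genes of the same pathways, from lists of 75 genes, had 82 gene-end regions. In ASO2 against NCA 0 rose and 2 fell (2.44%, beside 1.58% of the gene ends of like abundance to the members and 5.6% of all tested regions). In ASO10 against NCA 1 rose (1.22%, beside 3.15% and 1.09%), and 4 were lower in ASO2 than in ASO10 (4.88%, beside 4.84% and 3.23%). The 2 that fell in ASO2 were TXNDC5, a disulfide isomerase (−0.45 ± 0.14, adjusted p = 0.0286), and AUP1 (−0.51 ± 0.15, adjusted p = 0.0228). AUP1 is a membrane factor of ER-associated degradation that shares its region with HTRA2. With loess offsets, which steepened the abundance trend in this comparison, edgeR gave −0.47 for TXNDC5 (adjusted p = 0.00765) and −0.54 for AUP1 (adjusted p = 0.00599). P4HB, the founding protein disulfide isomerase, rose in ASO10 by 0.44 ± 0.11 (adjusted p = 0.0159), and by 0.27 with loess offsets (adjusted p = 0.175). Those lower in ASO2 than in ASO10 included the stress effectors DDIT3, the gene of CHOP, whose region also lies at an end of MBD6 (−0.43 ± 0.11, adjusted p = 0.00947), and TRIB3 (−0.43 ± 0.13, adjusted p = 0.0363). The others were the prolyl isomerase FKBP2 (−0.50 ± 0.14, adjusted p = 0.0203) and the ubiquitin ligase RNF139 (−0.36 ± 0.11, adjusted p = 0.0402). With loess offsets only FKBP2 of these 4 passed (−0.42, adjusted p = 0.0409).

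DDIT3 measured 49.1 ± 4.02 CPM in NCA, 44.4 ± 4.98 in ASO2 and 60.1 ± 1.84 in ASO10, and TRIB3 25.4 ± 3.01, 25.0 ± 6.68 and 33.9 ± 1.46 CPM (SD, n = 3). Both belong to the list of the PERK arm and other stress transducers, whose 21 regions had a median of 0.31 in ASO10 against NCA, with 17 of 21 above 0, and 0.19 with loess offsets. The medians of the other lists in that comparison were 0.13 for folding factors (20 regions), 0.15 for ER-associated degradation (19 regions) and 0.065 for translocation and secretory transport (22 regions). In ASO2 against NCA the medians of the lists, in the same order, were −0.011, −0.015, −0.15 and −0.051. The gene ends of like abundance to the members stood at 0.12 and −0.033. In ASO10 against NCA 72.9% of them lay above 0, and their median with loess offsets was 0.015.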

How the data were processed

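ATAC-seq libraries were made from DNA of the cell pellets tagmented with Tn5 and sequenced as paired ends, per the labels' protocols. The authors deposited whole-number counts per region for the 9 libraries. FastQC, Bowtie2 2.2.6, SAMtools, MACS2 2.1.2, DESeq2 1.42.0 and the builds hg38 and GRCh38 are named in the submitters' processing notes, without role or order. Whether reads, pairs or cut sites were counted, any Tn5 shift or read filter, and whether region starts count from 0 or 1 are not given in the sources used here. How fragments were counted scales the depth and so the precision.

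The counts were tested with edgeR 4.0.16 (R 4.3.3): filterByExpr by group, TMM factors, robust quasi-likelihood fit on all 9 libraries with group as the term, and Benjamini-Hochberg adjustment over 119417 regions, called at an adjusted p under 0.05. All libraries enter 1 fit so that they share the estimate of the spread (biological coefficient of variation 23.5%). Gene positions, strands and promoter windows came from RefSeq tables on GRCh38.p14, in which all 31 symbols matched. The alternatives were DESeq2 1.42.0, limma-voom (limma 3.58.1), other scalings (RLE, total counts, loess offsets with span 0.3), other count filters, other windows, a replicate block, only the groups compared, and each library left out. One more, regions over a promoter window in place of gene-end regions, was added after seeing the data. On simulated counts of ASO2 against NCA over 119417 regions, 200 of which were changed by a log2 of 1, 30% were recovered, including 96.2% of 53 such regions whose level exceeded 3 log2 CPM; 7 of the 67 calls made were false.

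The members and lists were chosen with earlier results of these data known. Values in every library are given for the 12 called regions with the smallest adjusted p (gene-end regions first). They are also given for the central regulators XBP1, ATF6, ERN1, HSPA5, HERPUD1 and DNAJB9. The same holds for the 2 highest and 2 lowest main gene-end regions by fold change in each comparison, and for the highest and lowest level. A gene's main gene-end region is the one with the highest mean CPM. PDIA6 and the internal CANX region are named because their promoter windows lie there. No pair of libraries was a copy: chi-square per degree of freedom between libraries of a group was 2.763 to 3.446. Replicate numbers are shared between groups in the labels but did not pair the libraries. A further marker of the labelled cell type is not reported here.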

Additional observations from a re-analysis of the deposited data

Results flagged for a closer look

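At 8 regions the effects of ASO2 and ASO10, each against the same control, differed by a direct test of ASO2 against ASO10 (edgeR, adjusted p under 0.05, called at 3.23% of all tested regions and 4.84% of gene ends of like abundance). The gene-end region of PDIA4 (chr7:149028120-149029186) was lower in ASO2, at a log2 fold change of −0.44. Of the distal regions, those near EDEM2 (chr20:35174619-35175218, −1.25), CALR (chr19:12956824-12957505, −0.87, adjusted p = 0.0419), XBP1 (chr22:28772418-28773426, −0.66), ERN1 (chr17:64145539-64146422, −0.47) and OS9 (chr12:57751613-57752892, −0.41) were lower in ASO2. Those inside ATF6 (chr1:161882736-161883150, 1.43) and DNAJC3 (chr13:95784894-95785505, 1.03) were higher in ASO2. The CALR, OS9 and XBP1 regions also lie at the ends of GADD45GIP1, CDK4 and CCDC117. Without ASO10 replicate 1, 0 gene-end and 0 distal regions were called in this comparison. The DNAJC3 value was 0.38 (adjusted p = 0.757) without ASO2 replicate 2.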

How the results depend on the processing

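Weak regions were hard to call: on simulated counts 30% of all regions changed by a log2 of 1 were recovered, against 96.2% of those above 3 log2 CPM. The 96.2% counts calls in either direction. Smaller changes, such as those at the member gene ends, were not simulated, so their recovery is not known. Distal regions called in ASO2 against NCA numbered 8, but 3 by DESeq2, 5 by limma-voom and 5 with no filter. Gene-end regions called in ASO10 against NCA numbered 1, but 2 by DESeq2, 3 by limma-voom, and 0 with loess offsets. Distal regions called there numbered 2, but 1 with loess offsets, no filter or without regions at the end of another gene, and 4 with at least 10 counts in every library. In ASO2 against ASO10 the gene-end count of 1 became 4 by limma-voom, 0 with loess offsets, 5 with at least 10 counts in every library and 5 with only the groups compared. The distal count of 7 became 4 by DESeq2, 3 with loess offsets, and 4 with no filter, with a distal window of 20 kb or without regions at the end of another gene. Gene-end medians with loess offsets were 0.085 for ASO10 against NCA and −0.085 for ASO2 against ASO10. With the replicate number as a block, the ASO10 counts were 0 gene-end and 1 distal, and the distal count of ASO2 against ASO10 was 4. Under it the calls of HERPUD1 (0.51, adjusted p = 0.0512) and the ERN1 distal region (0.48, adjusted p = 0.0596) in ASO10, and of the ATF6 (1.41, adjusted p = 0.0547) and DNAJC3 (0.96, adjusted p = 0.0886) distal regions between the oligonucleotides, were lost. The block rests on numbers alone: deviations of same-numbered libraries correlated at −0.0363 to 0.0126. With 1 library left out, the gene-end count stayed 0 for ASO2 against NCA, and was 0 to 1 for ASO10 against NCA and 0 to 2 for ASO2 against ASO10, while the distal counts ran from 4 to 9, 0 to 2 and 0 to 7. The medians ran from −0.086 to 0.033, 0.15 to 0.24 and −0.27 to −0.17. The distal count of ASO2 against ASO10 was 0 without ASO10 replicate 1. The cause of these shifts was not tested. None of the 12 called regions followed through every alternative changed sign in a comparison where it was called. For the other 4 only the loess values were read out singly.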

Other observations

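Genes outside the list whose RefSeq promoter window holds an ERSE or ERSE-II were read out after the members' values had been seen, as a description with no test of the set. There were 33 such genes, and 24 had a region of the count table. These regions need not be gene-end regions as defined for the members, so the gene-end shares beside them are an unlike background. Over the 19 tested regions that are not also a member's, the median log2 fold change was −0.0046 in ASO2 against NCA, 0.26 in ASO10 against NCA (16 of 19 above 0, from −0.34 to 0.79) and −0.22 in ASO2 against ASO10 (3 of 19 above 0). With loess offsets these medians were −0.034, 0.18 and −0.18. In ASO10 against NCA 1 of 19 was called (5.26%, beside 3.15% of gene ends of like abundance to the members and 1.09% of all tested regions). In ASO2 against ASO10 4 of 19 were called (21.1%, beside 4.84% and 3.23%). With loess offsets 1 and 2 were called. The 2 were CAMTA1, which shares its region with LOC105376689, and ERO1B, a gene of the folding factor list. ERO1B went the other way, higher in ASO2 than in ASO10 (0.41, edgeR adjusted p = 0.00475). With TMM factors it was not called (0.25, adjusted p = 0.283). The single call in ASO10 against NCA, among those 19, was NUCB1, the gene of nucleobindin, a calcium-binding protein of the Golgi, at chr19:48899896-48900530. It measured 10.9 ± 1.84 CPM in NCA, 14.7 ± 2.65 in ASO2 and 17.1 ± 1.89 in ASO10 (SD, n = 3), a log2 fold change of 0.66 in ASO10 (edgeR adjusted p = 0.0207, and 0.0348 with loess offsets) and 0.44 in ASO2 (adjusted p = 0.128). Of the 4 called between the oligonucleotides, all lower in ASO2, SETD3 had −0.42 (adjusted p = 0.0066, and 0.233 with loess offsets), TMEM120A −0.47 (adjusted p = 0.0195), CAMTA1 −0.59 (adjusted p = 0.032, and 0.0207 with loess offsets) and the uncharacterised LOC105373759 −0.47 (adjusted p = 0.0322). FICD, which modifies BiP, was not called, at 17.0 ± 1.58 CPM in NCA, 17.5 ± 3.2 in ASO2 and 21.2 ± 1.35 in ASO10.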
